A study of Mus musculus with 9 samples.

Results

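The liver transcriptomes of mice fed a high-fat diet (HFD) were compared with those of mice fed a normal diet (ND). The comparison used the 3 HFD livers (mice 1, 2 and 3) and the 3 ND livers (mice 6, 7 and 9), which are 6 of the 9 livers sequenced. The other 3 livers came from HFD mice that also received a citrus leaf fraction, and they did not enter the test. All 6 animals were male C57BL/6J mice, an inbred strain that gains weight on fatty food, and they were sampled at post natal day 100. The ND held 14% fat and the HFD 60% fat, and each diet was fed for 10 weeks. The diets came from different suppliers and also differed in their carbohydrate share, so the fat content cannot be told apart from the rest of the food. Terminal blood was drawn after an 8 h fast. An oral glucose test was run on the last day, and the timing of liver collection relative to either is not given in the sources used here. Whether the HFD mice were also dosed with the vehicle of the citrus fraction is likewise not given. One poly(A) RNA library was made per mouse.

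The liver takes up fatty acids from the blood, burns them in mitochondria and peroxisomes, turns them into ketone bodies, or stores them as triglyceride in lipid droplets. The nuclear receptor PPARA senses fatty acids and turns on the genes of fatty-acid breakdown, whereas SREBP transcription factors turn on the synthesis of cholesterol and fatty acids. Many cytochrome P450 and secreted-protein genes of the mouse liver differ between males and females, a pattern set by the rhythm of growth hormone secretion and its signal transducer STAT5B.

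The values are on the deposited log2 scale, read as log2(FPKM + 1), where FPKM counts sequenced fragments per kilobase of transcript, adjusted for depth. Of 23183 genes in the tables, 9978 had a mean of at least 1 FPKM over the 6 livers and were tested with limma, a linear model that moderates the variance across genes. A gene is said to have risen or fallen, or to have been up- or downregulated, only where its p-value, adjusted by the Benjamini-Hochberg method over all 9978 genes, was under 0.05. By this criterion 133 genes (1.33%) differed, of which 70 (0.702%) rose and 63 (0.631%) fell in the HFD group. All 133 separated the groups without overlap. A fold above 2 together with an unadjusted p under 0.05, the criterion used in the study, was met by 134 genes (1.34%), and 63 of them were also among the 133. An unadjusted p under 0.05 alone was found for 780 genes higher (7.82%) and 724 genes lower (7.26%) in the HFD group. Every HFD mouse lay above every ND mouse in 1064 genes (10.7%) and below every ND mouse in 1000 genes (10%). These shares are the background for the counts of members below. Over all tested genes, 4820 were higher and 5158 lower in mean in the HFD group, the background for members counted as higher or lower in mean. The median log2 fold change over all tested genes was -0.00907.

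**Figure D1:**
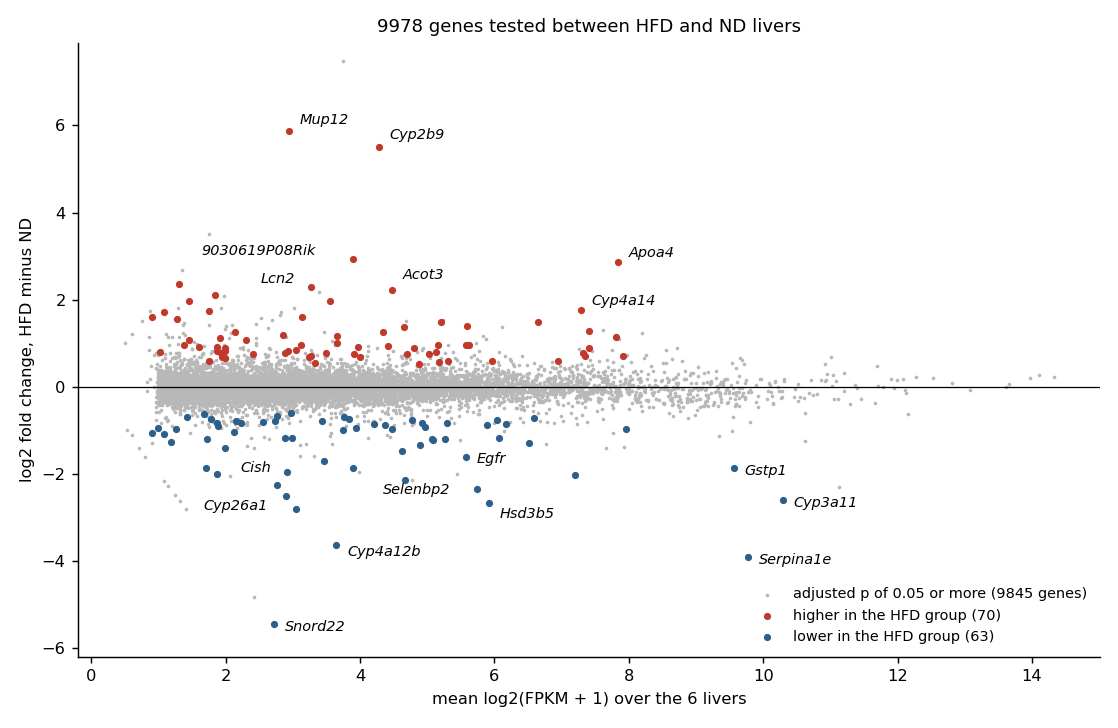
Log2 fold change between the HFD and ND groups (vertical axis) against the mean log2(FPKM + 1) over the 6 livers (horizontal axis) for the 9978 tested genes. Red and blue points are the 70 genes that rose and the 63 that fell (limma, adjusted p under 0.05), grey points the rest, and the uppermost grey point is Rnu6, which was above 0 in 1 library only.

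The libraries held similar numbers of genes above 0, with 14372 to 14951 per liver. No value of RNA quality was used here, and limma's array weights ran from 0.294 for ND mouse 6 to 5.04 for ND mouse 7. Relative depths, estimated from the spacing of low values, lay between 1 and 1.60 times that of HFD mouse 1, and the HFD and ND ranges overlapped. Absolute depth and counting error are unknown because counts of reads were not used here. Pearson's r across genes was 0.9795 to 0.9854 within the HFD group, 0.9746 to 0.9854 within the ND group, and 0.9651 to 0.9808 between the groups. On the first principal component, which held 40.6% of the variance, HFD mouse 1 (-5.994) lay closer to the ND mice (12.18 to 23.4) than HFD mice 2 and 3 did (-24.95 and -18.74). The labelled tissue was checked with 12 hepatocyte genes. Of these, 11 were tested, none was called, and they averaged 10.38 ± 0.247 for HFD and 10.49 ± 0.094 for ND mice (SD, n = 3 each). The remaining one, Alb, was listed at 0 in all 6 livers, which can be a failed estimate. In bulk liver, fewer cells of a type and less RNA per cell cannot be told apart.

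Short stretches of sequence at the start of 3 genes are shown first. Each gene was called in a retinoid, fatty-acid or growth hormone list below and does not stand for the other genes of that list. They were taken from the RefSeq windows on GRCm38.p6 that run from 250 bases before to 50 bases after each annotated start, and both strands were searched. The genes and motifs were picked after the values had been seen, and no binding was measured. In Cyp26a1 (chr19:37697748-37697807, plus strand, the 60 bases before the start) the capitals mark the unit AGTTCA on the minus strand, repeated after 5 bases, an arrangement known from binding sites of retinoic acid receptors. In Acot4 (chr12:84038319-84038378, plus strand, the 60 bases before the start) the capitals mark GGNCA repeated with AA between on the minus strand, the arrangement known from PPAR binding sites. In Cish (chr9:107296654-107296683, plus strand, bases -5 to 25 around the RefSeq start) the capitals mark a pair of TTCNNNGAA sites, the form known from STAT binding sites. The Cish stretch lies in the 5′ UTR of the longest GENCODE transcript.
Cyp26a1: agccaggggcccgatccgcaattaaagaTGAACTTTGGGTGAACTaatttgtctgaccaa
Acot4: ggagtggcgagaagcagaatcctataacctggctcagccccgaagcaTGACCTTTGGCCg
Cish: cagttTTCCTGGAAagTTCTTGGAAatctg

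The AGTTCA repeat was found in 8 of 32851 windows (0.0244%), and among the called genes with a window only in Cyp26a1, 1 of 52 that fell and 0 of 50 that rose. The GGNCA repeat was found in 67 windows (0.204%), with Acot4 as the only called gene. At least 1 TTCNNNGAA site was found in 8.3% of the windows, in 3 of the 50 genes that rose and in 6 of the 52 that fell. A window with at least 2 such sites was found for 0.457% of all windows and for Cish and Tgm1 among the called genes. A match is a description of the sequence, and a window without one says only that these letters are not in it.

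The 12 genes that rose and the 12 that fell with the smallest p-values, a fold above 2 and no overlap included enzymes of fatty-acid, drug and steroid metabolism. In the values below, the first 3 numbers belong to HFD mice 1, 2 and 3 and the next 3 to ND mice 6, 7 and 9. The retinoic acid hydroxylase Cyp26a1 (chromosome 19, 37697798 to 37701536 on GRCm38) was 1.68, 1.83 and 1.45 in the HFD mice and 4.18, 4.28 and 4.01 in the ND mice. All HFD values were far below all ND values, a fall by 2.5 ± 0.13 (SE) on the log2 scale (adjusted p = 2.81e-04, limma). Cyp3a11 (chromosome 5, 145854426 to 145879964), the major Cyp3a enzyme for drugs and steroids in mouse liver, was 9.12, 8.81 and 9.04 in the HFD mice against 11.78, 11.70 and 11.30 in the ND mice. It was 6.08-fold lower in the HFD group (log2 fold change -2.60 ± 0.18, SE, adjusted p = 0.00120, limma).

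The female-biased P450 gene Cyp2b9 (chromosome 7, 26173411 to 26210661) showed the opposite pattern. Its values were 6.57, 7.14 and 7.41 in the HFD mice and 2.84, 1.08 and 0.66 in the ND mice. The ND mice differed among themselves by more than the HFD mice did, yet the lowest HFD value was far above the highest ND value (log2 fold change 5.52 ± 0.51, SE, adjusted p = 0.00419, limma). Other genes of this set that rose were the recombination gene Rad51b by 1.96, the adhesion receptor Adgrv1 by 1.71, the acyltransferase Acnat2 by 1.96, the transcript 9030619P08Rik by 2.94, and the organic anion transporter relatives Slc22a27 by 2.10 and Slc22a29 by 1.56. Their adjusted p-values were 0.00113 to 0.0077. Rad51b, Adgrv1 and Slc22a29 were at or below 0.69 in every ND mouse, near the detection floor, where the added 1 FPKM makes the fold change smaller than that of the transcript. These genes and Slc22a27 were under 1 FPKM in every ND mouse. They reached the minimum mean only through the HFD mice, which favours a call.

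Genes that fell with them were the selenium-binding protein Selenbp2 by 2.34, the eicosanoid-metabolizing P450 Cyp2c55 by 2.0, the NKG2D ligand Raet1d by 2.15, the lectin Clec2h by 1.71, the terminal complement component C6 by 1.23, the oxysterol hydroxylase Cyp7b1 by 1.19, the mitochondrial persulfide dioxygenase Ethe1 by 1.19, and the helix-loop-helix inhibitor Id3 by 1.19. The adjusted p-values were 0.000854 to 0.0116. Raet1d lies within the span of Raet1e, which also fell (by 2.26, adjusted p = 0.0162, limma, a call lost without ND mouse 6 or 7), and reads of the pair may be split between them. Snord22, a small nucleolar RNA inside a host transcript, was listed at 0 in all HFD mice and at 4.76, 5.04 and 6.54 in the ND mice, and a poly(A) library does not measure such RNAs reliably. Mup12 was listed at 0 in all ND mice and at 5.35, 6.04 and 6.23 in the HFD mice. Mup12 thus reached the minimum mean only through the HFD mice. Snord22 and Cyp2c55, under 1 FPKM in every HFD mouse, reached it only through the ND mice. Mup12 is 1 of 20 closely related major urinary protein genes in the tables, 10 of which were at 0 in all 6 livers. The summed Mup signal was 14.60, 14.33 and 14.11 against 14.66, 13.99 and 14.25, and the groups overlapped.

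**Figure D2:**
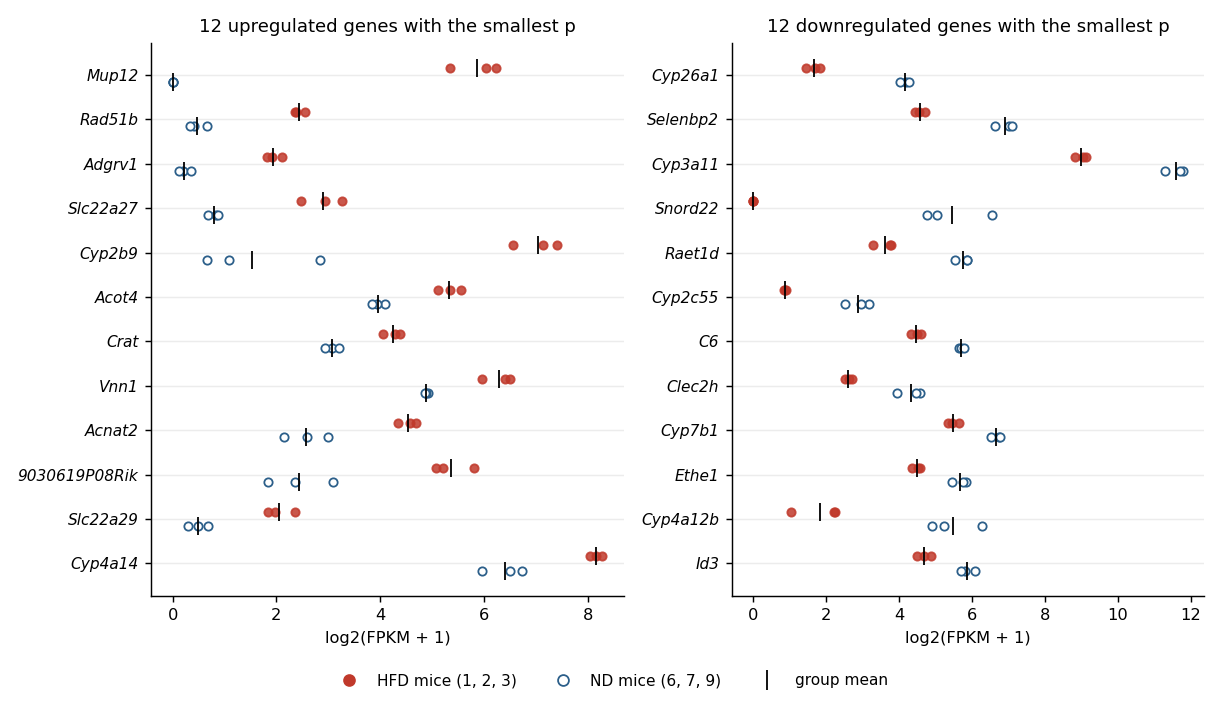
Log2(FPKM + 1) in each mouse for the 12 upregulated (left) and 12 downregulated (right) genes with the smallest p-values. Filled points are HFD mice, open points ND mice and bars the group means; in every gene the groups do not overlap, as for Cyp26a1 with HFD values up to 1.83 and ND values from 4.01.

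With 3 mice per group, single mice carried weight in many calls. When each of the 6 mice was left out in turn, 25 of the 133 genes passed in all 6 fits and 24 passed in none. The 25 included all of these 24 genes but Id3, whose call was lost without HFD mouse 2 or 3. They thus include the genes named above that reached the minimum of 1 FPKM through 1 group only.

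PPARA target genes were higher in the HFD group. Of 30 such genes 29 were tested, 27 were higher in mean, 20 had an unadjusted p under 0.05, 8 rose and none fell. The median log2 fold change was 0.654, and in 17 of the 29 every HFD mouse was above every ND mouse. Averaged over the 29 genes, the level was 6.12, 6.42 and 6.43 in the HFD mice and 5.76, 5.56 and 5.39 in the ND mice. HFD mouse 1 was the lowest of its group but still above all ND mice. The count of 8 was 4 with no minimum level and 4 to 10 with 1 mouse left out. Lists can share members. Acot4 is also counted among the thioesterases below and Crat among the peroxisomal genes, so these counts are not independent.

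The omega-hydroxylase Cyp4a14 (chromosome 4, 115486200 to 115496142) was 8.05, 8.17 and 8.28 in the HFD mice and 6.73, 6.50 and 5.97 in the ND mice, a rise of 1.76 ± 0.19 (SE, adjusted p = 0.0077, limma). Its relative Cyp4a10 was 0.83 higher with overlapping groups (adjusted p = 0.296, limma). Vnn1, a pantetheinase that breaks down a precursor of coenzyme A, was 5.97, 6.50 and 6.41 against 4.92, 4.89 and 4.87 and rose by 1.40 (adjusted p = 0.00731, limma). The ND mice were almost equal in this gene. Carnitine acetyltransferase Crat, which moves short acyl groups between coenzyme A and carnitine, was 4.05, 4.38 and 4.29 against 3.07, 3.20 and 2.94 and rose by 1.17 (adjusted p = 0.00731, limma). These 3 genes passed when any 1 mouse was left out, and the call of Cyp4a14 was lost when all 9 mice were fitted together.

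The acyl-CoA thioesterases, which release free fatty acids from coenzyme A, were all higher in mean. Of the 11 tested members 3 rose, 7 had an unadjusted p under 0.05, and the median was 0.582. It was 0.402 with no minimum level, 0.297 with a minimum of 10 FPKM and 0.398 without ND mouse 6. The peroxisomal Acot4, shown above with its repeat, was 5.11, 5.34 and 5.56 in the HFD mice and 4.10, 3.94 and 3.84 in the ND mice (1.38 ± 0.14, SE, adjusted p = 0.00633, limma). Acot3 was 5.34, 5.65 and 5.77 against 3.91, 3.40 and 2.78 (2.22 ± 0.26, SE, adjusted p = 0.0114, limma), and Acot2 rose by 1.18 (adjusted p = 0.0240, limma). In all 3 genes the HFD mice were uniform and separate from the ND mice. Acot1 was 0.73 higher (adjusted p = 0.19, limma). These genes lie side by side on chromosome 12 and are similar in sequence, so reads may be shared among them. The call of Acot3 was lost without HFD mouse 3 or ND mouse 7, and that of Acot2 without HFD mouse 2 or 3 or ND mouse 7 or 9.

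In mitochondrial fatty-acid oxidation 18 of 22 tested genes were higher in mean, 10 had an unadjusted p under 0.05, 2 rose, none fell, and the median was 0.278. In 14 of the 22, every HFD mouse was above every ND mouse. Cpt1a (chromosome 19, 3322334 to 3385733), the gatekeeper of fatty-acid import into mitochondria, was 7.33, 7.29 and 7.13 against 6.65, 6.58 and 6.73 (0.60 ± 0.11, SE, adjusted p = 0.0483, limma). Hadh, a dehydrogenase of the beta-oxidation cycle, was 8.23, 8.24 and 8.34 against 7.69, 7.51 and 7.47 (0.71 ± 0.12, SE, adjusted p = 0.0330, limma). Both differences were small and tight, with non-overlapping groups. The call of Cpt1a was lost without any 1 of the 6 mice, and that of Hadh without any 1 except ND mouse 6. The medium-chain dehydrogenase Acadm was 0.56 higher (adjusted p = 0.139, limma).

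In peroxisomal oxidation 19 of 23 tested genes were higher in mean, 9 had an unadjusted p under 0.05, and 3 rose (median 0.263). Among these were Crat and the peroxisome division factor Pex11a, which was 5.76, 6.02 and 6.4 against 5.06, 5.22 and 5.0 and rose by 0.97 (adjusted p = 0.0363, limma). The groups were separate, and the call was lost without any 1 mouse except HFD mouse 1. Ehhadh, a PPARA target in the same pathway, was 6.69, 6.81 and 7.09 against 7.17, 6.76 and 6.99, and the groups overlapped (adjusted p = 0.788, limma).

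Of 8 tested ketone body genes 5 had an unadjusted p under 0.05 and 2 rose, with a median of 0.453. Mitochondrial acetoacetyl-CoA thiolase Acat1 was 7.74, 7.69 and 7.67 against 6.94, 6.97 and 7.06 (0.72 ± 0.10, SE, adjusted p = 0.0234, limma). The monocarboxylate transporter Slc16a7 was 5.82, 5.49 and 5.62 against 4.74, 4.64 and 4.69 (0.95 ± 0.11, SE, adjusted p = 0.0112, limma). In both, the spread within a group was much smaller than the gap between groups, though both calls were lost without HFD mouse 3 or ND mouse 7, and that of Acat1 also without HFD mouse 2. Ppara itself was 6.18, 6.26 and 6.27 against 5.68, 5.50 and 5.78, without overlap (0.59 ± 0.11, SE, adjusted p = 0.0521, limma). It was called with a minimum of 10 FPKM. The fatty aldehyde dehydrogenase Aldh3a2 rose by 0.90 (adjusted p = 0.0452, limma), a call lost without any 1 mouse except HFD mouse 1.

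**Figure D3:**
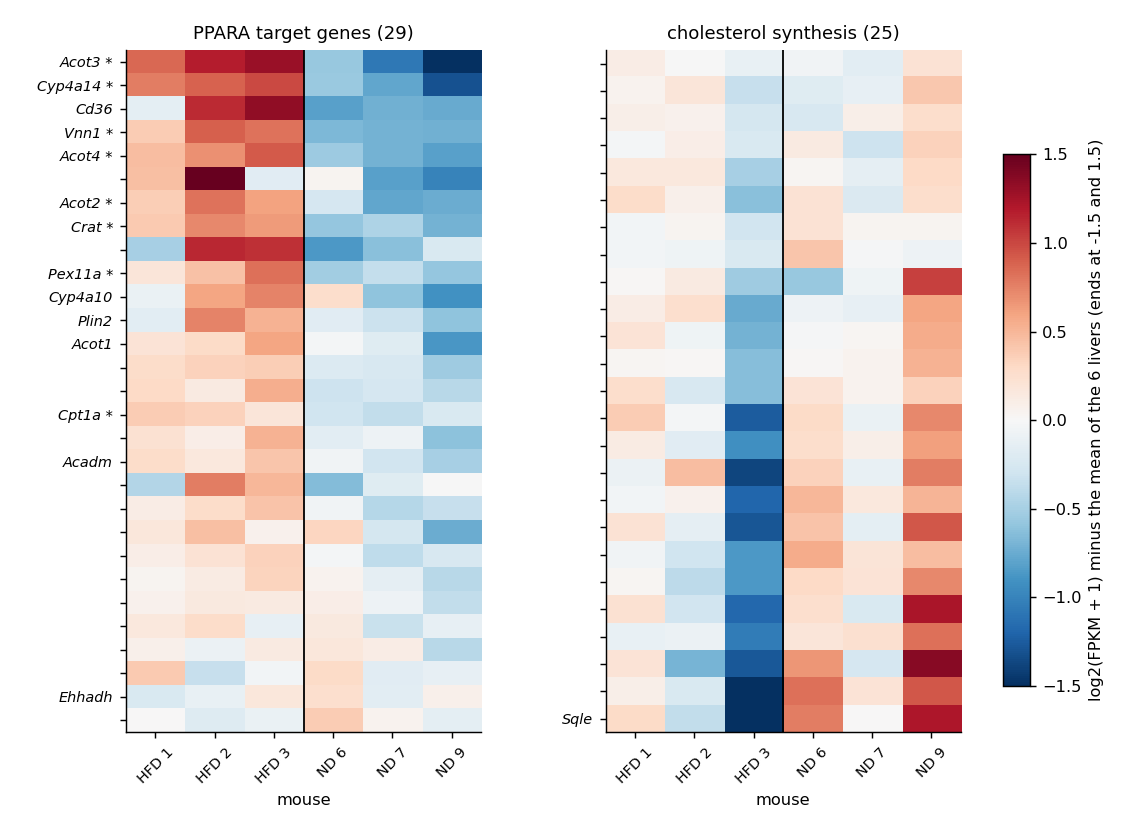
Log2(FPKM + 1) minus the mean of the 6 livers, by mouse (columns), for the 29 tested PPARA target genes (left) and the 25 cholesterol synthesis genes (right), ordered by fold change, with names for genes described in the text and stars for those past the limma threshold. The left panel is red in the HFD columns and blue in the ND columns for most genes, whereas the right panel differs mainly in HFD mouse 3 and ND mouse 9.

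For fatty-acid uptake and storage, 1 gene of each list rose. Intestinal-type fatty-acid binding protein Fabp2 was 7.89, 8.16 and 8.07 in the HFD mice and 6.82, 6.51 and 6.99 in the ND mice (1.27 ± 0.15, SE, adjusted p = 0.0115, limma), a call lost without HFD mouse 2 or 3. The lipid droplet coat gene Plin4 was 1.85, 1.93 and 2.18 against 1.07, 0.92 and 0.78 (1.06 ± 0.14, SE, adjusted p = 0.0146, limma), lost without HFD mouse 2 or 3 or ND mouse 7. Plin4 averaged under 1 FPKM in the ND mice and reached the minimum only through the HFD mice, which favours a call. It was the only call of both the lipid droplet list and the PPARG and steatosis list. Of 22 tested lipid droplet and lipolysis genes 18 were higher in mean and 8 had an unadjusted p under 0.05 (median 0.329). Of 11 tested PPARG and steatosis genes 10 were higher in mean and 6 had an unadjusted p under 0.05 (median 0.825). With a minimum of 10 FPKM, 6 of the PPARG and steatosis genes were tested, their median was 0.323 and none was called.

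HFD mouse 1 stood apart from the other HFD mice in these storage genes. Averaged over the 11 PPARG and steatosis genes, the level was 3.40, 4.36 and 4.46 in the HFD mice and 3.27, 3.23 and 3.46 in the ND mice, so that HFD mouse 1 lay within the ND range. The lipid droplet fusion gene Cidec was 1.99, 3.74 and 3.79 against 1.85, 1.42 and 1.90 (adjusted p = 0.19, limma). The droplet coat gene Plin2 was 8.10, 9.0 and 8.78 against 8.09, 7.93 and 7.65 (adjusted p = 0.210, limma). The fatty-acid translocase Cd36 was 5.08, 6.34 and 6.55 against 4.42, 4.51 and 4.47 (adjusted p = 0.0922, limma). Mogat1, an enzyme of triglyceride synthesis, was 0.87, 2.79 and 2.67 against 0.55, 0.28 and 1.09 (adjusted p = 0.218, limma). It averaged under 1 FPKM in the ND mice and reached the minimum only through the HFD mice. In each gene HFD mice 2 and 3 were high and HFD mouse 1 was nearer to the ND mice. Without HFD mouse 1 all 4 genes passed the threshold. Leaving out the HFD mouse in which they were lowest favours that result, so it is no evidence of a rise. The level of Pparg did not separate the groups (3.45, 3.83 and 3.83 against 3.56, 3.58 and 3.56).

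Apoa4 (chromosome 9, 46240696 to 46243459), an apolipoprotein of triglyceride-rich lipoproteins, was 9.52, 9.72 and 8.58 in the HFD mice and 6.56, 5.88 and 6.81 in the ND mice. The groups were widely separate, with a rise of 2.86 ± 0.33 (SE, adjusted p = 0.0110, limma) that passed without any single mouse. The call was lost with no minimum level. None of the other 18 tested apolipoprotein and lipoprotein assembly genes was called, and the median of the list was 0.0979, or 0.0431, 0.2 and -0.0281 without HFD mouse 1, ND mouse 6 and ND mouse 9.

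No gene of de novo lipogenesis or cholesterol synthesis was called. Of 15 tested lipogenesis genes 12 were lower in mean and 3 had an unadjusted p under 0.05, and the median of -0.198 changed to 0.190 with limma's array weights and to 0.0742 without ND mouse 9. Fatty-acid synthase Fasn was 4.62, 5.07 and 3.78 in the HFD mice and 5.17, 4.25 and 5.68 in the ND mice, with partial overlap (adjusted p = 0.579, limma). Scd1, the delta-9 desaturase, was 10.01, 10.51 and 9.45 against 11.41, 10.25 and 12.05 (log2 fold change -1.25, adjusted p = 0.257, limma). The spread within the ND group exceeded 1 log2 unit in both genes. The acetate-activating enzyme Acss2 was 5.88, 5.84 and 5.17 against 6.45, 6.17 and 7.33 without overlap (adjusted p = 0.19, limma). Thrsp, a lipogenic regulator, was 9.23, 9.19 and 9.05 against 8.74, 6.84 and 9.24, where ND mouse 7 alone was low (adjusted p = 0.490, limma).

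All 25 cholesterol synthesis genes were lower in mean in the HFD group, 8 of them with an unadjusted p under 0.05, and the median was -0.402. In 5 of the 25 every HFD mouse was below every ND mouse. The list averages were 5.09, 4.93 and 4.16 against 5.21, 4.97 and 5.6, so that HFD mice 1 and 2 were close to ND mice 6 and 7, and HFD mouse 3 and ND mouse 9 lay far to either side. Squalene epoxidase Sqle was 3.88, 3.21 and 1.69 against 4.35, 3.60 and 4.80 (adjusted p = 0.303, limma). In this gene HFD mouse 1 was above ND mouse 7. The median was -0.164 without HFD mouse 3, -0.607 without ND mouse 6 and -0.637 without HFD mouse 1.

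Genes that differ between the sexes in mouse liver were read as a male-biased and a female-biased list. Among 16 tested male-biased genes 8 fell and 1, Mup12, rose, and the median was -1.24. Mup12 reached the minimum only through the HFD mice, and Ugt2b38, which fell, only through the ND mice. The count of male-biased genes that fell was 2 of 18 with no minimum level (median -1.18). It was 3 to 7 when 1 mouse was left out. Among 8 tested female-biased genes 3 rose and none fell, and the median was 1.23. The average of the male-biased genes was 5.89, 5.54 and 5.48 in the HFD mice and 6.81, 6.51 and 6.49 in the ND mice. That of the female-biased genes was 2.57, 3.12 and 3.23 against 1.53, 1.51 and 1.39. Neither average overlapped between the groups, and all 6 animals were males. Of 20 female-biased genes, 12 were too low to be tested. Cyp2b13 and Hao2 reached the minimum of 1 FPKM only through the HFD mice, which favours a higher HFD average. The counts, the median and the average of the female-biased genes therefore describe the tested genes and do not stand for the list. With no minimum level 19 of the genes gave a median of 0.2 and 1 call. The median of the tested genes was 0.761 without HFD mouse 2 and 0.758 without HFD mouse 3.

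Among the male-biased genes, Serpina1e (chromosome 12, 103946931 to 103958975), of the alpha-1-antitrypsin cluster, was 9.08, 7.49 and 6.89 in the HFD mice and 11.75, 12.05 and 11.38 in the ND mice. The fall by 3.91 ± 0.50 (SE, adjusted p = 0.0140, limma) was the deepest of the list, and its call was lost without HFD mouse 2 or ND mouse 6 or 7. The arachidonic acid hydroxylase Cyp4a12b was 2.23, 1.04 and 2.20 against 6.28, 4.89 and 5.23 (fell by 3.64 ± 0.42, SE, adjusted p = 0.00940, limma). Its near-identical neighbour Cyp4a12a was 7.66, 5.92 and 4.74 against 8.56, 6.47 and 7.21 with overlap (adjusted p = 0.470, limma). The ketosteroid reductase gene Hsd3b5 was 5.53, 4.65 and 3.57 against 7.30, 6.93 and 7.54 (fell by 2.68 ± 0.43, SE, adjusted p = 0.0315, limma). In Serpina1e and Hsd3b5 the HFD mice differed more among themselves than the ND mice did, without reaching the ND values. The call of Hsd3b5 was lost without HFD mouse 2 or any 1 ND mouse. Cyp4a12a, which did not pass, is named after its values were seen. Selenbp2 and Cyp7b1, described above, Gstp1, C8b and Ugt2b38 were the other male-biased genes that fell, and the call of C8b was lost without any 1 mouse except HFD mouse 1.

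Among the female-biased genes, Cyp2b13 was 1.66, 2.25 and 3.53 in the HFD mice and 0.19, 0.12 and 0.06 in the ND mice (2.36 ± 0.41, SE, adjusted p = 0.0371, limma). The peroxisomal hydroxyacid oxidase Hao2 was 1.02, 1.98 and 2.10 against 0.00, 0.16 and 0.11 (1.61 ± 0.27, SE, adjusted p = 0.0336, limma). Both were near 0 in the ND mice and present in every HFD mouse. The call of Hao2 was lost without any 1 mouse except HFD mouse 1, and that of Cyp2b13 without HFD mouse 2 or any 1 ND mouse. Cyp2b9 and Cyp2b13 are similar in sequence, so their reads may be shared. Cyp2b10, another Cyp2b gene and a textbook target of the xenobiotic receptor CAR, was 0.26, 0.12 and 0.39 against 1.94, 1.73 and 0.95, in the opposite direction (adjusted p = 0.0584, limma). It was under 1 FPKM in every HFD mouse and reached the minimum only through the ND mice.

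In the growth hormone and IGF axis 2 of 15 tested genes fell and none rose, with a median of 0.113, which was 0.0106 without ND mouse 6, 0.0364 without HFD mouse 2 and 0.0752 without HFD mouse 1. Both genes that fell are known targets of STAT5 and inhibitors of cytokine signaling. Cish, shown above with its pair of sites, was 2.34, 2.32 and 1.14 in the HFD mice and 4.23, 3.79 and 3.67 in the ND mice (fell by 1.96 ± 0.32, SE, adjusted p = 0.0318, limma). Socs2 was 1.98, 2.56 and 2.34 against 3.45, 3.16 and 3.78 (fell by 1.17 ± 0.19, SE, adjusted p = 0.0331, limma). In neither gene did the groups overlap. The call of Cish was lost without HFD mouse 2 or any 1 ND mouse, and that of Socs2 without any 1 of the 6 mice. Of the same list, named after their values were seen, the growth hormone receptor Ghr was 8.43, 8.23 and 8.43 against 8.19, 8.13 and 8.24, and Igf1 was 7.36, 7.34 and 7.13 against 7.49, 7.28 and 7.47. The adjusted p-values were 0.544 and 0.645. Onecut1 was 2.06, 2.61 and 2.25 against 3.52, 3.53 and 4.64 (adjusted p = 0.0521, limma), and the STAT5-repressed repressor Bcl6 was 2.46, 2.17 and 3.78 against 1.59, 1.43 and 1.15 (adjusted p = 0.139, limma).

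**Figure D4:**
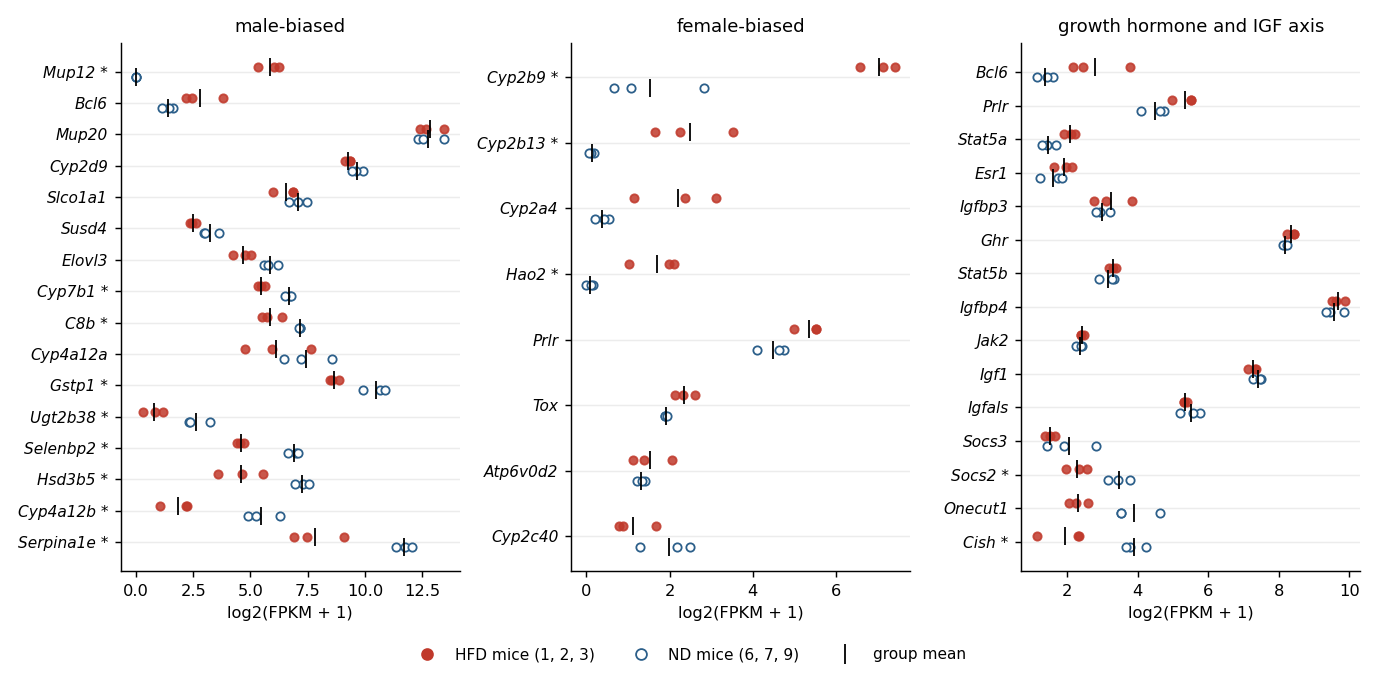
Log2(FPKM + 1) in each mouse for the tested male-biased (16), female-biased (8) and growth hormone and IGF axis (15) genes, ordered by fold change; filled points are HFD mice, open points ND mice, bars group means, and stars mark genes past the limma threshold. Male-biased genes such as Serpina1e (HFD up to 9.08, ND from 11.38) and female-biased genes such as Cyp2b9 (HFD from 6.57, ND up to 2.84) lie on opposite sides, whereas unstarred genes did not pass.

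Enzymes that handle drugs, steroids and other foreign compounds changed in both directions. Of 24 tested genes of the Cyp2b, Cyp2c and Cyp3a families and their xenobiotic receptors, 3 rose and 2 fell, with 7 and 12 past an unadjusted p of 0.05 and a median of -0.345. Cyp2c38 rose by 1.25 (adjusted p = 0.0334, limma) while Cyp2c55 and Cyp3a11 fell, as given above. The call of Cyp2c38 was lost without any 1 mouse except HFD mouse 1. Of 21 tested glutathione S-transferases 4 fell and none rose, and 9 had an unadjusted p under 0.05 in that direction (median -0.374, and -0.192 without ND mouse 6 or -0.596 without ND mouse 9). No gene of this list was called with no minimum level, or without HFD mouse 2, HFD mouse 3 or ND mouse 7. Gstp1 (chromosome 19, 4035407 to 4037985) was 8.86, 8.47 and 8.56 in the HFD mice and 10.67, 10.88 and 9.92 in the ND mice (fell by 1.86 ± 0.25, SE, adjusted p = 0.0192, limma). Gstm3 fell by 1.48, Gstm4 by 0.92 and Gstm6 by 0.85 (adjusted p = 0.0483, 0.0215 and 0.0446, limma). These genes are close copies in a cluster on chromosome 3. The call of Gstm3 was lost without any 1 of the 6 mice, that of Gstm6 without any 1 except ND mouse 9, that of Gstp1 without HFD mouse 2 or 3 or ND mouse 6 or 7, and that of Gstm4 without HFD mouse 2 or 3 or ND mouse 7.

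Among 20 tested glucuronosyl- and sulfotransferases 3 fell and none rose. Ugt2b1 was 7.49, 7.51 and 7.41 in the HFD mice and 8.36, 8.36 and 8.63 in the ND mice (fell by 0.98 ± 0.12, SE, adjusted p = 0.0140, limma). Ugt2b38 fell by 1.86 and Ugt2b35 by 0.76 (adjusted p = 0.0309 and 0.0330, limma). Ugt2b38 averaged under 1 FPKM in the HFD mice and reached the minimum only through the ND mice, which favours a call. The call of Ugt2b1 was lost without HFD mouse 2 or 3 or ND mouse 7, that of Ugt2b38 without any 1 mouse except HFD mouse 2, and that of Ugt2b35 without any 1 except ND mouse 9. The NRF2 oxidative stress list had no call among 20 tested genes. Its quinone reductase Nqo1 was 0.58 higher and glutathione reductase Gsr 0.51 lower (adjusted p = 0.188 and 0.11, limma). In retinoid metabolism Cyp26a1 was the 1 gene called among 21, and the median of the list was 0.107, or 0.0402 without HFD mouse 1 and 0.0504 without ND mouse 9.

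Of 21 tested bile acid genes 2 fell, Cyp7b1 of the alternative synthesis pathway and the receptor Fgfr4 by 0.59 (adjusted p = 0.0309, limma), whose call was lost without any 1 of the 6 mice. The rate-limiting enzyme of the classical pathway, Cyp7a1, was 5.31, 4.22 and 5.03 against 4.38, 5.07 and 5.76, with partial overlap (adjusted p = 0.825, limma). In the sterol efflux list no gene was called. Its exporter Abcg8 was 5.46, 5.17 and 5.31 against 4.92, 4.80 and 4.90 without overlap (adjusted p = 0.12, limma).

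**Figure D5:**
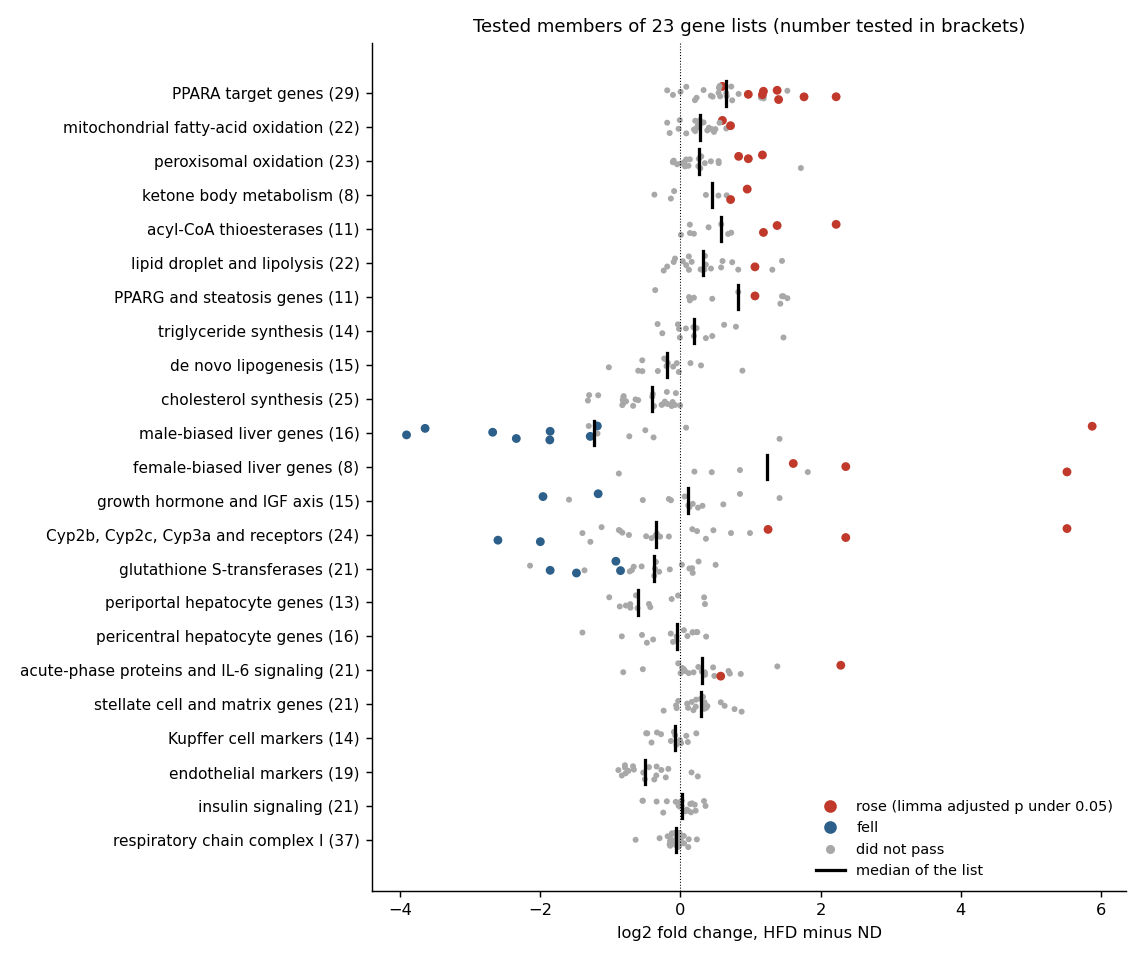
Log2 fold change (HFD minus ND, horizontal axis) of each tested member of 23 gene lists, with the median of each list as a bar and the number tested in brackets; red points rose and blue points fell by limma, and vertical scatter within a list carries no value. PPARA targets (median 0.654) and tested female-biased genes (1.23, but 0.2 with no minimum level) lie to the right. Male-biased (-1.24) and cholesterol synthesis genes (-0.402) lie to the left, and insulin signaling and complex I genes near 0.

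Carbohydrate and insulin genes gave a single call. Ppp1r3b, which directs a phosphatase to glycogen in liver, was 6.14, 5.58 and 6.11 in the HFD mice and 4.50, 4.07 and 4.78 in the ND mice, a rise of 1.49 ± 0.21 (SE, adjusted p = 0.0228, limma) that was lost without HFD mouse 1 or 3 or ND mouse 6 or 7. The gluconeogenic genes Pck1 (9.64, 8.55 and 8.75 against 9.59, 8.70 and 8.74) and G6pc (6.20, 5.91 and 6.70 against 6.17, 5.75 and 6.70) overlapped between the groups. The 95% interval of the difference was -0.81 to 0.74 for Pck1 and -0.56 to 0.69 for G6pc. None of 21 tested insulin signaling genes was called, and the insulin receptor Insr differed by -0.03 (95% interval -0.31 to 0.26). None of 10 tested AMPK genes was called. The 37 complex I genes and 39 genes of complexes II to V of the respiratory chain held no call either, with medians of -0.0612 and -0.0496 whose signs turned with array weights and without ND mouse 6.

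Hepatocyte zonation was followed with periportal and pericentral genes. None was called. Of 13 periportal genes 11 were lower in mean, 9 had an unadjusted p under 0.05, and in 8 every HFD mouse was below every ND mouse (median -0.612). Their average was 6.97, 6.63 and 6.52 against 7.33, 7.12 and 6.98, so that HFD mouse 1 was just below ND mouse 9. Cyp2f2, a periportal P450, was 8.76, 8.33 and 8.5 against 9.50, 9.14 and 9.09 (adjusted p = 0.114, limma). Of 16 pericentral genes 2 had an unadjusted p under 0.05, both lower (median -0.0545, turning to 0.00804 without HFD mouse 1 and 0.0127 without ND mouse 7), among them the P450 gene Cyp1a2 at 7.36, 6.41 and 7.11 against 8.76, 8.46 and 7.87 (adjusted p = 0.0762, limma). Of 35 amino acid catabolism and urea cycle genes 1 fell, the cytosolic aspartate aminotransferase Got1, at 5.47, 5.59 and 5.31 against 6.38, 6.17 and 6.42 (by 0.87 ± 0.12, SE, adjusted p = 0.0208, limma). Its call was lost without HFD mouse 2 or 3 or ND mouse 6 or 7.

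The epidermal growth factor receptor Egfr (chromosome 11, 16752203 to 16918158), the abundant growth factor receptor of hepatocytes, was 4.92, 4.85 and 4.54 in the HFD mice and 6.32, 6.05 and 6.79 in the ND mice. It fell by 1.62 ± 0.20 (SE, adjusted p = 0.0119, limma), without overlap, and the call was lost only without HFD mouse 3 among the 6 fits that leave out 1 mouse. The cytokine receptor Lifr fell by 0.83 (adjusted p = 0.0483, limma), lost without any 1 mouse except HFD mouse 1. Of the 10 tested growth factor receptor and ligand genes 3 fell, counting Fgfr4, and none rose.

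Of 21 tested acute-phase and IL-6 signaling genes 18 were higher in mean, 9 of them with an unadjusted p under 0.05, 2 rose and none fell (median 0.305, and 0.189 without ND mouse 9). The iron-siderophore binding protein Lcn2 was 4.92, 3.80 and 4.54 in the HFD mice and 1.78, 2.87 and 1.74 in the ND mice (2.29 ± 0.36, SE, adjusted p = 0.0309, limma), and the metalloreductase Steap4 rose by 0.57 (adjusted p = 0.0330, limma). The call of Lcn2 was lost without HFD mouse 1 or 3 or ND mouse 6 or 9, and that of Steap4 without any 1 of the 6 mice. Serum amyloid Saa1 was 8.43, 6.97 and 7.68 against 6.98, 7.03 and 6.49, and HFD mouse 2 was below ND mouse 7 (adjusted p = 0.296, limma).

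Markers of other cells of the liver were read beside these results, and their part in the results was not tested. The 14 tested Kupffer cell markers, the 14 leukocyte markers and the 6 MHC class II genes held no call, with medians of -0.0837, -0.000779 and -0.157. Without HFD mouse 1 the first 2 medians were 0.131 and 0.208, and without ND mouse 9 they were 0.147 and 0.196. The MHC class II median was -0.366 without ND mouse 6 and -0.0949 without ND mouse 9. Summed Kupffer FPKM was 166.3 to 248.8 in the HFD mice and 162.2 to 318 in the ND mice. No lymphocyte marker reached 1 FPKM. Of the recruited macrophage markers 7 of 15 were tested and 1, the tetraspanin Cd9, fell (by 0.99, adjusted p = 0.0309, limma), a gene that hepatocytes and other cells also express. That call was lost without any 1 mouse except HFD mouse 2.

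Of the 19 endothelial markers 17 were lower in mean and none was called (median -0.507, and -0.23 without HFD mouse 1), and their summed FPKM was 50.75, 108.7 and 139.1 in the HFD mice and 118.4, 145.5 and 189.2 in the ND mice. HFD mouse 1 was the lowest. Of 21 tested stellate cell and matrix genes 17 were higher in mean and 4 had an unadjusted p under 0.05, all higher (median 0.29, with 0.148 without HFD mouse 2 and 0.095 without ND mouse 6). The collagen gene Col1a1 was 1.15, 1.73 and 1.39 against 0.65, 0.62 and 0.68, without overlap (0.77 ± 0.16, SE, adjusted p = 0.0798, limma), and Col3a1 was 2.53, 2.97 and 2.59 against 1.54, 1.70 and 2.24 (adjusted p = 0.101, limma). Col1a1 was under 1 FPKM in every ND mouse and reached the minimum only through the HFD mice. Of 10 adipocyte markers Lep, Plin1 and Ucp1 were at 0 in all 6 livers, and 3 were tested without a call, all higher in mean (median 0.123). Their average was 4.93, 6.10 and 6.57 in the HFD mice and 5.25, 5.30 and 5.49 in the ND mice. The adipokine Cfd, named after its values were seen, was 0.66, 2.86 and 3.85 against 0.73, 1.01 and 1.37 (log2 fold change 1.43, adjusted p = 0.389, limma, and 0.0219 without HFD mouse 1). The latter fit leaves out the HFD mouse in which Cfd was lowest, so it is no evidence of a rise. HFD mice 2 and 3 were high and HFD mouse 1 was not, as in the storage genes above, and the part of these cells in those values was not tested.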

How the data were processed

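Poly(A) RNA of 9 mouse livers was sequenced in pairs, 1 library per mouse. Per the study's methods and the submitters' notes, the authors trimmed reads and aligned them to mm10 (TopHat), and normalized FPKM came from Cufflinks. The deposited values are on a log2 scale. The added 1 FPKM was inferred from the values, and annotation versions are not given in the sources used here. The 6 HFD and ND livers were fitted with limma 3.58.1 in R 4.3.3 with a trended prior (genes with mean of at least 1 FPKM, Benjamini-Hochberg adjustment). The script was tested on simulated data. The p-values set the difference between groups against the spread between mice within groups, moderated across genes. With 1 library per mouse, that spread also holds the error of the library. Named genes were the 12 in each direction with the smallest p, a fold above 2 and no overlap, up to 4 called members of each list (or the 2 with the smallest p), 55 anchor genes of the main lists, the 10 largest called changes in each direction and the 5 highest members of marker lists. Not all are printed, and others are marked where named. The members and lists were chosen with earlier results of these data known. Coordinates are from GENCODE M21 (GRCm38), where 95.4% of symbols matched 1 gene, and promoters from RefSeq. Alternatives changed the pseudocount, minimum level, scaling, variance model, array weights and mice. Values of some named genes are not reported here.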

Additional observations from a re-analysis of the deposited data

How the results depend on the processing

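The count of 133 genes was 37 with no minimum level, 1741 with limma's array weights, which gave ND mouse 7 a weight of 5.04 and ND mouse 6 one of 0.294, and 35 to 140 when 1 mouse was left out. With all 9 mice in 1 fit it was 134, of which 96 were shared, and the calls of Cd9, Cish, Clec2h, Cpt1a, Cyp4a14, Fgfr4, Id3, Lcn2, Lifr, Socs2, Steap4, Ugt2b1, Ugt2b35 and Ugt2b38 were lost. The 134 genes by unadjusted p and fold became 216 with a pseudocount of 0.1, 68 with a minimum of 10 FPKM, and 111 to 164 with 1 mouse left out. Among the calls by adjusted p, the share that was higher ranged from 43.6% to 63.5% over the fits with 1 mouse left out. Among named genes without a call, the direction turned with array weights for Ehhadh (0.0798), Fasn (0.19) and Pck1 (0.0155), and for Pck1 with quantile normalization (0.0883). With 1 mouse left out the log2 fold change was -0.562 to 0.13 for Cyp7a1, -0.166 to 0.312 for G6pc, -0.153 to 0.0381 for Insr and -0.363 to 0.258 for Pck1. The cause of these changes was not tested. The HFD and ND mice were separate animals, so no paired analysis was made. Depth is unknown, so counting error in low genes could not be separated from the spread between mice.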
